A study of Mus musculus with 2 samples.

Results

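The calpain system of skeletal muscle was examined in long-read RNA sequencing of mouse gastrocnemius, the large calf muscle. It comprised 5 genes taken by symbol from the 15371 annotated genes with a read: Capn1, Capn2 and Capn3, which encode protease subunits, Capns1, which encodes the small subunit, and Cast, which encodes the inhibitor calpastatin. All 5 had reads. They were represented by 83 transcript models in replicate 1 and 59 in replicate 2. The 2 libraries came from female B6CASTF1/J mice aged 2 months, each made from 2 µg of RNA, with no treatment named in the labels. B6CASTF1/J is the F1 hybrid of the B6 and Cast strains, and the strain name has nothing to do with the gene Cast. Replicate 1 was labelled animal 3 and replicate 2 animal 4, although the labels give both the same donor identifier. There was 1 group and no control, so each difference below is between 2 libraries, and its p-value covers counting error only.

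Calpains are calcium-dependent cysteine proteases that cut their substrates at a limited number of sites. Calpain 1 and calpain 2, the products of Capn1 and Capn2, are expressed in most tissues and each pairs with the small subunit from Capns1, while calpastatin binds and blocks the paired enzymes. Calpain 3, the product of Capn3, is the calpain typical of skeletal muscle. It binds the giant sarcomere protein titin, and its loss causes a limb-girdle muscular dystrophy.

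A short exon recurs at the same place in the 3 protease genes and is shown because no deposited transcript model of Capn1 or Capn2 holds it as annotated. It has 12 bases in each gene. It lies within the coding sequence at chr19:5996779-5996790 on the minus strand in Capn1 (exon 12 of Capn1-202), at chr1:182482536-182482547 on the minus strand in Capn2 (exon 11 of Capn2-201) and at chr2:120495236-120495247 on the plus strand in Capn3 (exon 12 of Capn3-202), build mm10. The sequences below, from the GENCODE M21 transcripts, run 5′ to 3′ with the 12-base exon in capitals between the 18 nearest bases of the exons on either side.
Capn1: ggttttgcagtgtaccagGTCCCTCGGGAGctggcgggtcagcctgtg
Capn2: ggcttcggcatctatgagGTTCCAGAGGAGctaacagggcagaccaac
Capn3: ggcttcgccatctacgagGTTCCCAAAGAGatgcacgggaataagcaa
Within the 12 bases, Capn1 and Capn2 were identical at 8 positions, Capn2 and Capn3 at 9, and Capn1 and Capn3 at 7.

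No read included the 12-base exon where it could be judged. In Capn1 the exon was included by 0 of 73 reads of replicate 1 and 0 of 68 of replicate 2. In Capn2 it was included by 0 of 113 and 0 of 112. In replicate 1, a Capn2 read held a 30-base exon that contains the 12 bases, and another held them within a 2842-base exon that retained an intron. No Capn3 read spanned the exon in either library, so its use in Capn3 could not be measured. Apart from the exon before it, described next, the other internal exons of the same transcripts were included by nearly every informative read. Of the 19 internal exons of Capn1-202 with at least 20 informative reads in each library, 18 were held by over 95% of reads and 16 by all of them. In Capn2-201 the count was 17 of 18, and all 17 were included by every read. An informative read is one whose model either holds the exon or spans it with an intron.

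In place of the 12-base exon, the exon before it ended further downstream than annotated. In Capn1 this 176-base exon was 11 bases longer in 73 of 73 reads of replicate 1 and in 67 of 67 of replicate 2 that shared its start. In Capn2 the matching 170-base exon was 17 bases longer in 112 of 114 reads and in 111 of 112. Set against the annotated transcript, the models were therefore 1 base shorter in Capn1 and 5 bases longer in Capn2 over this stretch. The 17 Capn2 bases, chr1:182484186-182484202, lie in the intron and are held by the retained-intron transcript Capn2-202. They are printed below in capitals, between the annotated end of the preceding exon and the start of the exon after the 12-base exon, for comparison with the Capn2 sequence above.
Capn2 as modelled: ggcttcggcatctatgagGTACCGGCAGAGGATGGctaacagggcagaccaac
The 17 bases could be turned into the 12-base exon with 6 single-base changes, of which the difference in length takes at least 5. The intron bases that follow them are GT, as they are at the annotated exon end. The matching 11 bases of Capn1 lie in no transcript used here and were not analysed here.

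The absence of the 12-base exon was shared by other very short exons. Of all constitutive internal exons (held by every annotated coding transcript that spans them) with at least 20 informative reads in each library, 16 were of at most 16 bases, in 16 genes, and all 16 were included by 0 reads. They included 4 exons of 12 bases, those of Capn1, Capn2, Idh3g and Uchl3. Of the 33 exons of up to 20 bases, 24 were included by under 5% of reads and 8 by over 95%, with a median exon at 0%. Their read-weighted inclusion was 0.294% in replicate 1 and 0.850% in replicate 2, a value set by the 18-base exon of the calcium pump gene Atp2a1, which held 96.2% and 96.1% of the informative reads. Without it, a choice made after seeing the data, the other 32 exons gave 7.82% and 21.9%. Of the 167 exons of 21 to 30 bases, 148 were included by over 95% of reads, and the read-weighted inclusion was 97.3% and 97.4%. Over the 31486 exons longer than 50 bases it was 99.9% in both. The plot of inclusion by exon length places the Capn1 and Capn2 exons among these. Inclusion in these models is what the authors' processing assigned, and whether the exon is absent from the RNA was not tested.

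**Figure D1:**
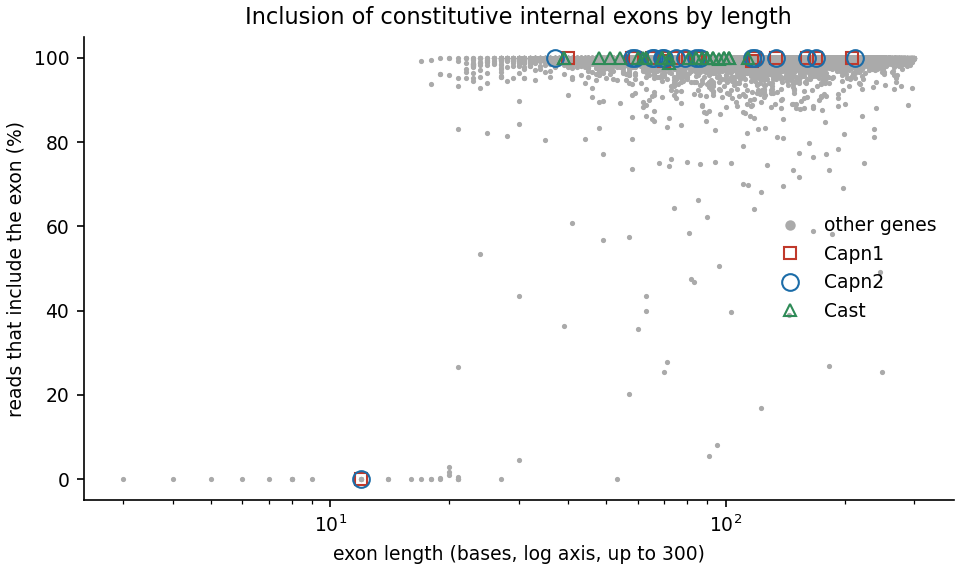
Share of reads that include each constitutive internal exon (%, vertical axis, both libraries pooled) against exon length in bases (horizontal log axis, up to 300). Grey points are exons of other genes and open symbols those of Capn1, Capn2 and Cast: the 12-base exons of Capn1 and Capn2 sit together at 0%, while the other exons of the 3 genes lie at or near 100%.

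Cast, the inhibitor gene, had the most reads of the 5 genes and Capn3, the muscle calpain gene, the fewest. Library totals were 1349298 and 1359923 reads, and the calpain system took 439 and 367 of them, 325 and 270 counts per 1000000 reads (CPM). None of the 5 genes was called different between the libraries, where 7.82% of the 9341 genes tested were called (Fisher's exact test with Benjamini-Hochberg adjustment over all of them, threshold 0.05), and 3.56% were called lower in replicate 2. All 5 ratios of replicate 2 to replicate 1 were below 1, with a median log2 ratio (CPM + 1) of -0.17 against -0.01 over all tested genes. The replicates stand for samples of 1 group, so their order carries no meaning.

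Capn1, the large subunit of calpain 1 (ENSMUSG00000024942.17, chr19:5988545-6015897, minus strand), had 78 reads in replicate 1 and 70 in replicate 2. These were 57.8 CPM (95% Wilson interval 46.3 to 72.1) and 51.5 CPM (40.7 to 65.0), which overlap (adjusted p = 0.849, Fisher's exact test). Capn2, the large subunit of calpain 2 (ENSMUSG00000026509.15, chr1:182467260-182517608, minus strand), had 120 and 112 reads, or 88.9 CPM (74.4 to 106.3) and 82.4 CPM (68.5 to 99.1). Its libraries also overlapped (adjusted p = 0.892, Fisher's exact test).

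Capns1, the shared small subunit (ENSMUSG00000001794.13, chr7:30186936-30198811, minus strand), had 33 and 19 reads, or 24.5 CPM (17.4 to 34.3) and 14.0 CPM (8.94 to 21.8). This was the widest gap among the 5 genes, 0.571-fold with an interval of 0.327 to 0.997, and it did not pass the adjusted threshold (adjusted p = 0.287, Fisher's exact test). In replicate 2 an unspliced model assigned to the neighbouring gene Cox7a1, on the opposite strand, lay over the Capns1 locus with 88 reads, and replicate 1 had none. Its part in the lower Capns1 count was not tested.

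Capn3, the muscle calpain (ENSMUSG00000079110.11, chr2:120456019-120504913, plus strand), had the fewest reads, 8 and 7, or 5.93 CPM (3.00 to 11.7) and 5.15 CPM (2.49 to 10.6). Its adjusted p was 0.980 (Fisher's exact test), and the interval of the fold, 0.327 to 2.30, leaves a wide range. None of these Capn3 reads reached an annotated coding first exon, as described below. Whether so few reads reflect the level of Capn3 RNA in the muscle was not tested. Cast, the inhibitor (ENSMUSG00000021585.10, chr13:74692368-74808810, minus strand), had the most, 200 and 159 reads, or 148 CPM (129 to 170) and 117 CPM (100.1 to 137). Replicate 2 was 0.789-fold of replicate 1 with an interval of 0.641 to 0.971, and the adjusted p was 0.190 (Fisher's exact test).

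Per length, the order was Cast, Capn2, Capn1, Capns1 and Capn3, the same as by reads. Each long read was counted once whatever its length, so dividing by length raises genes with short models relative to the others. Divided by the read-weighted mean length of the models of each gene, Cast was at 30.4 ± 5.51 CPM per kb (SD, n = 2), Capn2 at 26.8 ± 1.59, Capn1 at 19.0 ± 1.92, Capns1 at 16.3 ± 6.75 and Capn3 at 6.23 ± 1.31. The libraries of Cast and Capn2 overlapped on this scale, as did those of Capn1 and Capns1. Those of Capn2 lay above those of Capn1 (27.9 and 25.7 against 20.4 and 17.7 CPM per kb, replicate 1 first). Those of Capns1 lay above those of Capn3 (21.1 and 11.5 against 5.31 and 7.16). Capn3 models averaged 1118 and 719 bases, short of the 3174 bases of Capn3-202, which raises its value on this scale. By reads alone, Cast made up 44.4% ± 1.58 (SD, n = 2) of the reads of the 5 genes, Capn2 28.9% ± 2.25, Capn1 18.4% ± 0.923, Capns1 6.35% ± 1.65 and Capn3 1.86% ± 0.0601.

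**Figure D2:**
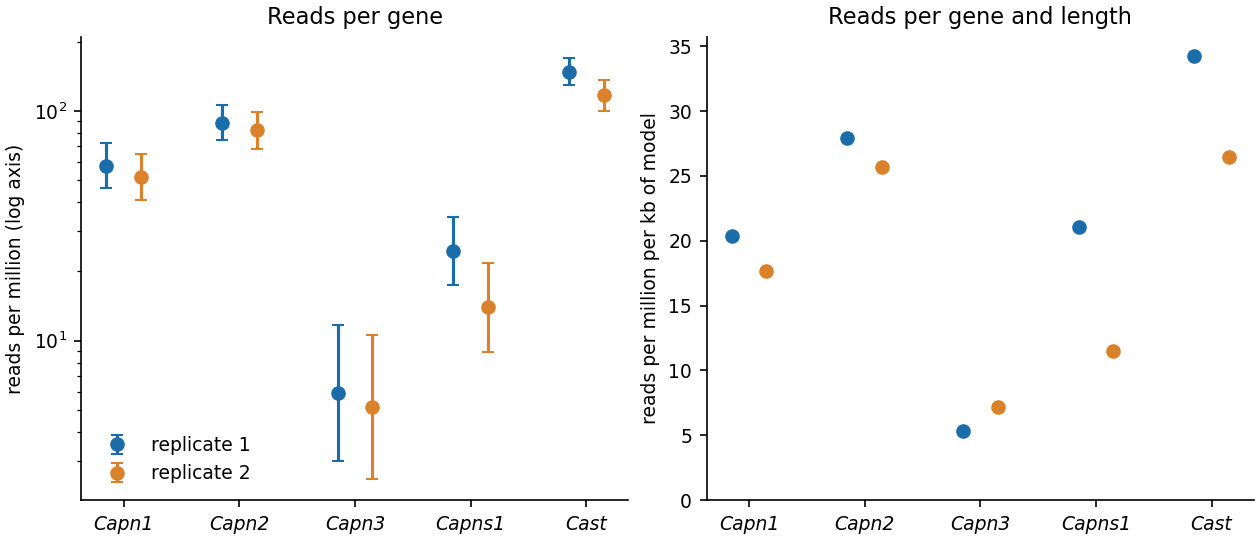
Left, CPM of each gene (log axis) in replicate 1 (blue) and replicate 2 (orange), with bars for the 95% Wilson interval. Right, the same reads per kilobase of model: Cast, at 34.3 and 26.5, and Capn2 lie highest, and Capn3, at 5.31 and 7.16, lowest.

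Other cell types in the tissue differed between the libraries. Summed levels of 6 adipocyte markers were 1160 CPM in replicate 1 and 138 in replicate 2, with 5 of 6 genes called lower in replicate 2, and those of 5 Schwann cell markers 663 and 96.3 CPM, with 5 of 5 called lower. The 5 smooth muscle markers summed to 221 and 89.0 CPM with 4 called lower, and the 5 endothelial markers to 185 and 125 CPM with 1 called lower. Fibroblast markers, at 1206 and 1352 CPM, and macrophage markers, at 91.2 and 65.4 CPM, had 1 of 5 called higher and 1 of 3 tested called lower, in that order. The 6 slow fibre genes summed to 1055 and 7773 CPM and were all called higher in replicate 2, against 7.82% of all genes tested called in either direction. The 7 fast fibre genes summed to 193151 and 190886 CPM, with 4 called higher and 3 lower in replicate 2. At such depth small differences are called: Atp2a1, with 201493 and 194599 reads, was called lower at a log2 ratio of -0.06. The satellite cell markers Pax7 and Myf5 together had 4 reads and 1 read. Among the 9 marker lists, Myf5 in replicate 2 was the one marker at 0. Their part in the lower Cast and Capns1 counts of replicate 2 was not tested. In such bulk tissue, fewer cells of a type and less RNA per cell cannot be told apart.

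Reads of Capn3 lay mostly in its 3′ part. None of the 8 and 7 reads reached either annotated coding first exon, while 93.3% (112 of 120) and 96.4% (108 of 112) of Capn2 reads, 78.2% and 84.3% of Capn1 reads and 51.5% and 52.6% of Capns1 reads did. For Cast the shares were 91.0% and 95.6%. Across 5307 and 5266 genes with at least 20 reads, the median gene had 91.3% and 90.6% of its reads reach a coding first exon. Among genes with 5 to 15 reads and a longest coding transcript of 2500 to 4000 bases, a window chosen after the Capn3 values were seen, 17 of 842 for replicate 1 and 20 of 800 for replicate 2 had no such read.

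The longest Capn3 model, with 2 reads in replicate 1, held 12 exons and 1344 bases, from exon 13 onwards. The most used one held 7 exons and had 3 reads in replicate 1 and 2 in replicate 2. In replicate 2, 1 read lay within exons 3 to 8 and ran on into an intron. A further read of replicate 1 was unspliced and lay wholly inside the last exon of Ganc, the same-strand neighbour whose 3′ end overlaps the annotated 5′ part of Capn3, so its gene of origin is uncertain.

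The few Capn3 reads did touch the exons that distinguish this calpain. The 18-base exon 15 and the 114-base exon 16 belong to the second of the inserted stretches that calpain 3 has and the other calpains lack, and the 144-base exon 6 to the first. Exons 15 and 16 were included by 2 of 2 reads in replicate 1, and no read of replicate 2 was informative. Exon 6 was included by 1 of 1 read in replicate 2. In the annotation, exons 15 and 16 are each held by 1 of the 6 coding transcripts that span them, and exon 6 by 3 of 6. With so few reads, no Capn3 exon met the minimum for a test. The 18-base exon, chr2:120498968-120498985 on the plus strand, is printed in capitals between 18 bases of each neighbouring exon, because it encodes a run of mostly lysine residues and, unlike the 12-base exon, was held by a model.
Capn3 exon 15: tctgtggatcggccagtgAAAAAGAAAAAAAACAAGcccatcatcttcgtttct

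**Figure D3:**
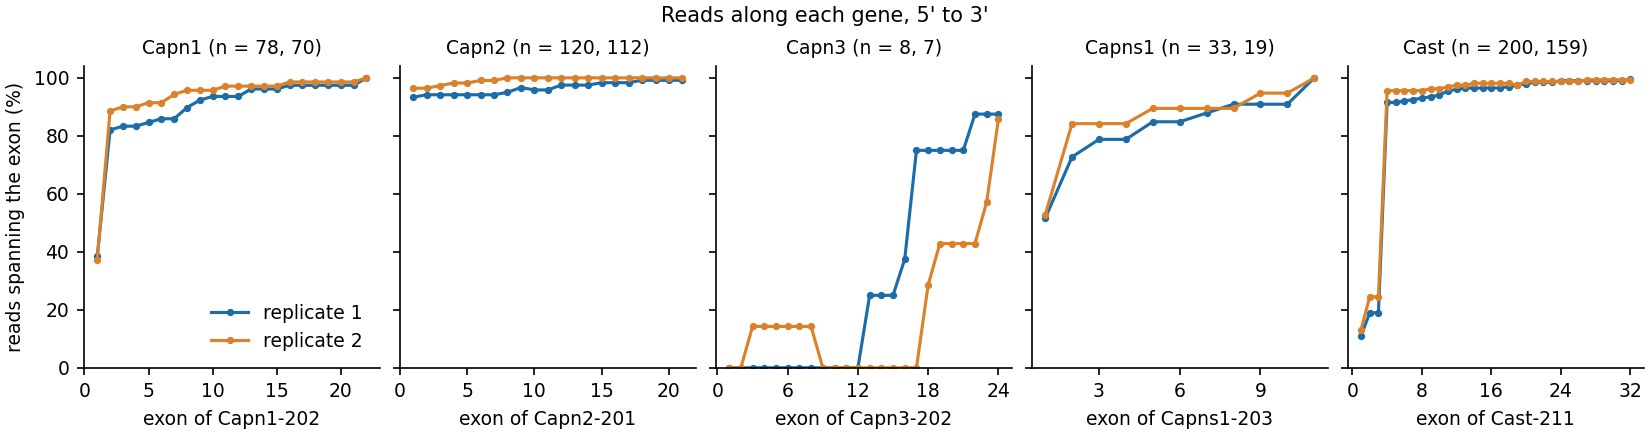
Share of the reads of each gene whose model spans a given exon (%, vertical axis) against exon number from 5′ to 3′ in the annotated coding transcript named under each panel, with replicate 1 in blue and replicate 2 in orange and the read numbers above. Capn2 stays above 90% throughout, Capn1, Capns1 and Cast drop at the first exons of the transcript shown, and Capn3 reads lie mostly at the 3′ end.

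The classes given to the models differed among the 5 genes. In the deposited tables a model is Known when it matches an annotated transcript, NIC when it joins annotated splice sites in a new way, NNC when it uses an unannotated site, ISM when it matches only part of an annotated chain, and Genomic otherwise. Over all annotated genes, 65.9% and 65.3% of reads were Known. Capn1, Capn2 and Capn3 had 0 Known reads of 78 and 70, 120 and 112, and 8 and 7. Every annotated coding transcript of Capn1 or Capn2 that spans the 12-base exon holds it. No model of these 2 genes held that exon as annotated. A read spanning it therefore could not match such a transcript, so the 0 Known reads set no bound on a share. NNC models held 91.7% and 95.5% of Capn2 reads. The leading Capn1 model, of 21 exons, had 30 and 29 reads and was classed NIC in replicate 1 and NNC in replicate 2. Its exons joined at the same positions, so the Capn1 class shares cannot be compared between libraries. The second Capn1 model, with 27 and 25 reads, was NIC in both libraries. Yet every Capn1 read sharing the start of the exon before the 12-base exon ended it 11 bases past its annotated end. For Capn1, the label NIC therefore need not mean that all sites are annotated. Capns1 had 21 of 33 and 12 of 19 Known reads, most of them Capns1-203 with 17 and 10.

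**Figure D4:**
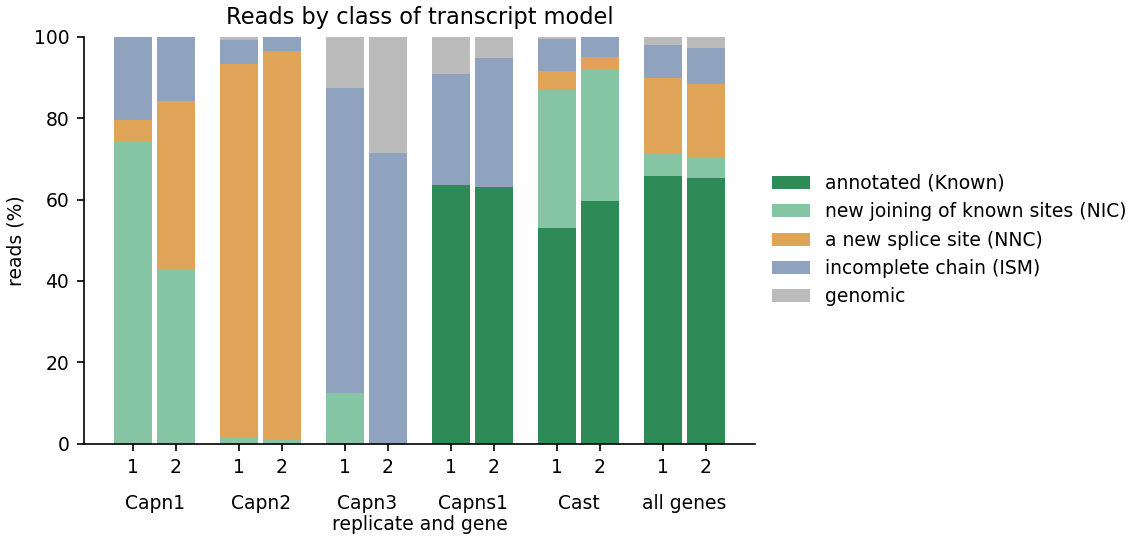
Share of reads (%, stacked to 100) in each class of transcript model for the 5 genes and for all annotated genes, with replicates 1 and 2 side by side. Annotated models take 65.9% and 65.3% of reads over all genes and are missing from Capn1, Capn2 and Capn3.

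One model carried most Capn2 reads. It held 20 exons and 3230 bases and had 108 of 120 reads of replicate 1 and 107 of 112 of replicate 2, with no call between the libraries (adjusted p = 0.785, Fisher's exact test, with 1.70% of 4881 genes called). All 112 and 108 Capn2 reads that reached a coding first exon used that of Capn2-201. Capn1 was spread over 2 first exons. That of Capn1-202 was used by 29 of 61 reads of replicate 1 and 26 of 59 of replicate 2, 47.5% (35.5 to 59.8) and 44.1% (32.2 to 56.7), and that of Capn1-201 by 31 and 32, 50.8% and 54.2%. The first exon of Capn1-206 had 1 read in each. The share of the leading Capn1 model, 38.5% and 41.4%, gave an adjusted p of 1 (Fisher's exact test). All 17 and 10 Capns1 reads that reached a coding first exon used that of Capns1-203, and every read informative for an internal exon of that transcript included it. The next Capns1 model, with 7 and 6 reads, was an incomplete chain of 10 exons.

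Calpastatin is transcribed from several promoters, and the form made depends on the first exon. Of Cast reads that reached a coding first exon, 144 of 182 for replicate 1 and 113 of 152 for replicate 2 used the first exon of Cast-207, 79.1% (72.6 to 84.4) and 74.3% (66.9 to 80.6). The first exon of Cast-211 had 22 and 21 reads, 12.1% (8.12 to 17.6) and 13.8% (9.22 to 20.2), and that of Cast-201 had 16 and 18, 8.79% (5.48 to 13.8) and 11.8% (7.62 to 17.9). The downstream first exons of Cast-202 and Cast-212 had none, which allows 2.22 and 2.21 CPM for a count of 0. The first exon of Cast-207 led in both libraries, and the intervals of the other 2 overlapped. In the annotation, the coding sequence of Cast-207 has 2058 bases and begins after its first exon, against 2262 bases in Cast-201 and 2364 in Cast-211, whose coding sequences begin in their first exons.

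The sequences before the 4 Cast starts listed by RefSeq (build GRCm38.p6, the same coordinates as mm10) are shown because the reads divide among these starts. Each runs 5′ to 3′ on the minus strand and ends before the RefSeq start or, where an annotated exon begins earlier, before that exon, and capitals mark GC boxes, GGGCGG or its reverse complement CCGCCC.
Before Cast-211, chr13:74808811-74809010: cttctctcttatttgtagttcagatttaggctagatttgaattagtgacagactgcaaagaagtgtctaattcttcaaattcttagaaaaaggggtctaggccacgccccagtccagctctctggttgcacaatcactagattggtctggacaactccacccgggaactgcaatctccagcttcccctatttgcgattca
Before Cast-201, chr13:74807961-74808210: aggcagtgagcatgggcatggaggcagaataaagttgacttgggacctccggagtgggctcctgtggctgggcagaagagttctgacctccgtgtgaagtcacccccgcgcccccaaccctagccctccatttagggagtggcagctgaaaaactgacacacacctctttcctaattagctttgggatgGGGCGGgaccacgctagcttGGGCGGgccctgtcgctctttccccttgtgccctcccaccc
Before Cast-207, chr13:74770737-74770986: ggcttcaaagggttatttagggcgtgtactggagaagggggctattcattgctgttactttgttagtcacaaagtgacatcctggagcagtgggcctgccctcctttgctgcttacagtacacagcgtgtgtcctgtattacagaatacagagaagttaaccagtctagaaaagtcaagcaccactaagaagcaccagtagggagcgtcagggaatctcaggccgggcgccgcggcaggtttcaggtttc
Before Cast-202, chr13:74734262-74734511: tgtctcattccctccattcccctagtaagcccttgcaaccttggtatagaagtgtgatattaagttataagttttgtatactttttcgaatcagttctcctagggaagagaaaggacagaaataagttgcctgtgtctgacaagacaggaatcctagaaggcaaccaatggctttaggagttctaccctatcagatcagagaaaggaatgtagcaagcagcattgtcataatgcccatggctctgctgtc
In the 250 bases before the RefSeq start, the Cast-201 promoter held 2 GC boxes and the other 3 held none, while 32.7% of the 32851 RefSeq promoters held at least 1. None of the 4 held a TATA box, searched as TATAAA or its reverse complement TTTATA, which 12.4% of promoters held. CpG pairs numbered 3 before Cast-211, 8 before Cast-201, 7 before Cast-207 and 1 before Cast-202, against a median of 6 over all promoters. A match describes the letters only.

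A single internal Cast exon met the definition of alternative (pooled inclusion of 5% to 95%). This 57-base coding exon at chr13:74748805-74748861, annotated in Cast-208 and Cast-211, was included by 19 of 183 reads of replicate 1 and 14 of 152 of replicate 2, 10.4% (6.75 to 15.6) and 9.21% (5.57 to 14.9), a mean of 9.80% (n = 2). No difference between the libraries was called (adjusted p = 1, Fisher's exact test), where 0.406% of 1971 alternative exons were called. The other 29 internal exons of Cast-211 were included by over 95% of informative reads, 26 of them by all. For the 105-base exon among them, reads with its 102-base form (57 and 42) count as uninformative, and that choice is given below. The 57-base exon is printed in capitals between 18 bases of each neighbouring exon.
Cast 57-base exon: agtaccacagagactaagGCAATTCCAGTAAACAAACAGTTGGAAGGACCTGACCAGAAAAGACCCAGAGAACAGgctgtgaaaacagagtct

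Inclusion of the 57-base exon was read beside the first exon of the same read. Among reads starting at the first exon of Cast-211 it was included by 9 of 22 for replicate 1 and 7 of 21 for replicate 2, 40.9% (23.3 to 61.3) and 33.3% (17.2 to 54.6). Among reads starting at that of Cast-207 it was included by 4 of 143 and 5 of 113, 2.80% (1.09 to 6.97) and 4.42% (1.90 to 9.94). The intervals of these 2 starts did not overlap in either library. Reads starting at that of Cast-201 lay between, with 4 of 16 and 2 of 18. These are descriptions with no test, and reads of 1 library may include copies of the same molecule.

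A 3-base choice of splice acceptor was the most frequent variation in Cast. The exon at chr13:74704101-74704205 was used in its 105-base form by 141 and 115 reads and in a 102-base form, lacking the first 3 bases, by 57 and 42. The shorter form thus took 28.8% (22.9 to 35.5) and 26.8% (20.4 to 34.2). Both forms are annotated. Its share was similar at every first exon in replicate 1, 27.3%, 31.3% and 26.6% for Cast-211, Cast-201 and Cast-207. In replicate 2 it was used by 10 of 20 reads from Cast-211 (interval 29.9% to 70.1%) and by 22.2% and 24.8% of those from the other 2, with overlapping intervals. The 3 bases are in capitals below, between 18 bases of the preceding exon and the next 18 bases of the exon.
Cast 3-base choice: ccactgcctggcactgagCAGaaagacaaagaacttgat
Shifts of 3 bases of the same kind at other Cast exons were rare, with at most 5 reads in a library.

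**Figure D5:**
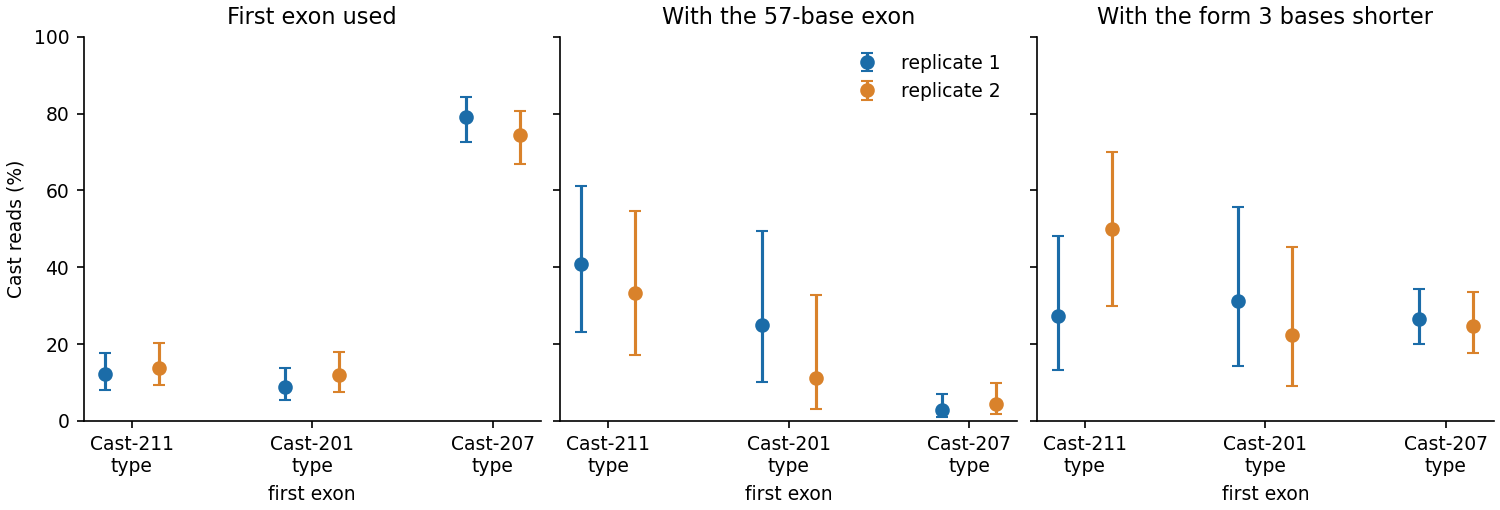
Left, share of Cast reads reaching a coding first exon that use each of 3 first exons (%), middle, share of the reads from each first exon that include the 57-base exon, and right, share that use the 102-base form of the 105-base exon, in replicate 1 (blue) and replicate 2 (orange) with 95% Wilson intervals. The Cast-207 first exon takes 79.1% and 74.3% of reads and includes the 57-base exon least, at 2.80% and 4.42%.

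The combinations gave many low-count models. Cast reads fell into 54 structures over both libraries, 16 of them seen in both. The complete Cast-207 chain had 91 and 77 reads, 45.5% (38.7 to 52.4) and 48.4% (40.8 to 56.1) of Cast reads, with no call between the libraries (adjusted p = 1, Fisher's exact test). The same 29-exon form with the 102-base exon, an unannotated joining, followed with 33 and 26 reads. Cast-201 had 6 and 11 reads and Cast-211 7 and 4. A 33-base exon in no annotated transcript, chr13:74695262-74695294, was held by 6 and 1 reads.

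Of the 12 other calpain genes on the list, 6 had a read, 3 were tested and none was called, where 7.82% of all 9341 genes tested were called. With 3 genes tested, no call cannot be told apart from that share. Capn7, a calpain that lacks the calcium-binding domain of the classical enzymes, had 71 and 81 reads. Capn10 had 10 and 9 reads and Capn15 had 7 and 5. Capn5 (1 and 2), Capn6 (0 and 4) and Capn11 (1 and 0) were below the minimum of 10 reads summed. Capn8, Capn9, Capn12, Capn13 and Capns2 had no read, and Capn14 was not matched in the annotation.

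Of 18 genes for calpain 3 partners and calpain substrates, all were tested, 1 was called higher in replicate 2 and 4 lower, with a median log2 ratio of -0.16. Over all genes tested, 7.82% were called, 3.56% as lower, and the median was -0.01. These shares cover genes with as few as 10 reads. The test calls smaller differences at higher read numbers, and the shares were not matched to the list in depth. Ttn, the titin gene, had 381 and 471 reads (adjusted p = 0.0429, Fisher's exact test). The 4 lower were the glycolytic enzyme gene Aldoa with 17899 and 12416 reads, Des, for the intermediate filament desmin, with 5235 and 4193, Casq1, for the calcium store protein calsequestrin, with 5488 and 4587, and Trim63, for the muscle ubiquitin ligase MuRF1, with 477 and 299. The other 13 did not pass the test. Among them were Ryr1, the calcium release channel (1078 and 961 reads), Dysf, for the membrane repair protein dysferlin (65 and 82), Flnc, for filamin C (244 and 193), and the titin-binding ankyrin repeat genes Ankrd2 (138 and 126), Ankrd23 (4153 and 4244) and Ankrd1 (9 and 5). The remaining ones were Ahnak (49 and 28), Cmya5 (322 and 369), Myom1 (793 and 906), Slc8a3 (29 and 23), Sptan1 (18 and 23), Tln1 (65 and 76) and Vcl (42 and 42).

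Genes with the nearest pair of levels were sought for each of the 5 genes by Euclidean distance of log2(CPM + 1) over the 2 libraries. They were Vps11 (78 and 70 reads) and Ksr1 (77 and 70) for Capn1, Tfdp1 (120 and 110) and Cog4 (122 and 113) for Capn2, Gpatch4 and Manbal (33 and 19 each) for Capns1, and Hsbp1 (200 and 159) and Grina (200 and 156) for Cast. For Capn3, 28 genes shared its counts of 8 and 7. Ties also left genes unnamed for Capn1 and Capn2, where 2 genes lay at the distance of Ksr1 and 2 at that of Cog4. With 2 libraries this is a likeness of level only.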

How the data were processed

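Raw counts of long reads per transcript model were used as deposited, with no normalization, 1 table per library, with the model exons in bases from the deposited annotation files. Per the deposited notes, the authors placed reads on mm10 with GENCODE M21, and the file headers name TALON, which assigns long reads to models. Aligner, versions, filters and platform: not given in the sources used here. Coordinates were compared only with GENCODE M21 on the same build.

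Per-gene sums of these counts were scaled by each library's reads to CPM. The library totals include spike-in reads, 49103 (3.64%) in replicate 1 and 20235 (1.49%) in replicate 2. Genes with at least 10 reads summed, exons with at least 20 informative reads in each library and a pooled inclusion of 5% to 95%, and the leading transcript of genes with 20 or more reads per library were each tested (Fisher's exact test, two-sided, scipy 1.17.1), with Benjamini-Hochberg adjustment over the whole table and a threshold of 0.05. Log2 ratios used a pseudocount of 1 CPM. Shares carry 95% Wilson intervals, which cover counting error only, since no molecular identifiers were used here to remove copies. Annotated models were joined by transcript, and other spliced models by gene and intron chain. Other unspliced models of a gene were joined whatever their position. No 2 spliced models of a library shared a chain, so 3′ ends of a given chain could not be compared. Alternatives used edgeR 4.0.16 and DESeq2 1.42.0 scaling. The tests were run on simulated data first.

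The rule named all 5 genes, up to 6 models of each with at least 5 reads summed, the alternative exons, the calpain family and partner lists and the 2 nearest genes. Markers were fixed as 9 lists. The genes and lists were chosen with earlier results of these data known.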

Additional observations from a re-analysis of the deposited data

How the results depend on the processing

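All 42 log2 ratios of the 5 genes under the alternatives were below 0, and none passed the adjusted threshold, as in the reported test. These ratios come from the same 2 libraries and largely the same reads. A pseudocount or a read minimum cannot change their sign, so the shared direction is not independent evidence. With annotated transcripts alone, Capn1, Capn2 and Capn3 gave no ratio because they had no such read. For Capn1 and Capn2, no model held the 12-base exon as annotated, so reads spanning it could not count under this setting. The Cast and Capns1 shares given below for annotated transcripts alone therefore leave these reads out. The count of called genes, 730, was 173 with edgeR's exact test at a dispersion of 0.01. With mitochondrial and spike-in reads left out of the totals, 335 genes were called higher and 370 lower in replicate 2. The reported test called 397 higher and 333 lower. The count of genes with a differing leading transcript, 83, was 10 with annotated transcripts alone, where fewer genes were tested. With annotated transcripts alone, the mean share of the reads of the 5 genes was 86.1% for Cast, 13.9% for Capns1 and 0% for Capn1, 0% for Capn2 and 0% for Capn3. Per kilobase the shares were 30.7% for Cast, 16.2% for Capns1 and 6.48% for Capn3, and with spliced models alone Capn3 had 1.50%. Leaving out replicate 1 or replicate 2 gave a Cast share of 43.3% to 45.6%. The mean read-weighted inclusion of exons of up to 20 bases, 0.572%, was 14.9% without the exon of Atp2a1, an alternative chosen after seeing the data. Depth limits Capn3 most, with 8 and 7 reads. No paired analysis was possible because the labels define 1 group.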
